A study of Drosophila melanogaster with 4 samples.

Results

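Isolated peaks of trimethylated lysine 4 of histone H3 (H3K4me3) were 442 peaks on the autosomal arms 2L, 2R, 3L and 3R. Each stood alone, with a long stretch free of other peaks on both sides. A peak was kept if it was at most 2000 bp wide and at least 10000 bp from the neighbouring peak on both sides. The first and the last peak of each arm were left out, since they have a neighbour on 1 side only. The 442 peaks were 3.82% of the 11572 peaks of the list, 7.45% of the 5932 autosomal peaks and 8.67% of the 5097 inner autosomal peaks of at most 2000 bp (95% exact Clopper-Pearson interval 7.91 to 9.48). The other 4655 of these 5097 peaks had a neighbour closer than 10000 bp on at least 1 side and served for comparison.

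Chromatin came from S2-DRSC, a male Drosophila melanogaster line that was derived from late embryos. Cells were fixed with 1.8% formaldehyde for 15 min. The 4 libraries were 2 of chromatin precipitated with a rabbit polyclonal H3K4me3 antibody and 2 of input DNA, without any treatment or genotype contrast. The authors' 1 list of peaks gave a start, an end and a score for each peak in FlyBase release 5, with no value for a single library. No spread between replicates could therefore be given, and the read depth was unknown.

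H3K4me3 is placed mainly by Set1-type and Trithorax-type methyltransferases and marks nucleosomes just after the start sites of transcribed genes. In the compact fly genome many active genes lie next to each other, often with starts that face away from each other, so marked starts tend to lie close together. A peak far from any other marked position is the less usual arrangement.

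The isolated peaks were chosen by their positions and widths, so gaps and widths below are descriptions. Scores came from the same peak calls and were not tested either. The scale of the score was not stated, so ratios of scores hold on the authors' scale alone. Intervals of medians are exact binomial intervals at 95%. They cover counting error only and take peaks as independent of each other.

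Isolated peaks had lower scores and were slightly narrower than the other peaks. Their scores ran from 7.65 to 559.7 with a median of 51.9 (46.9 to 59.9, n = 442) and quartiles of 23.2 and 101. The other peaks had a median score of 72.4 (70.05 to 74.8, n = 4655) and quartiles of 27.7 and 125. The ratio of the medians was 0.716. The median width was 886 bp (828 to 958) in isolated peaks and 989 bp (969 to 1010) in the other peaks, a ratio of 0.896.

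Low scores were more frequent among isolated peaks, except for the lowest ones. Scores under 10 were found in 3.17% of the isolated peaks (1.74 to 5.26) and 4.00% of the others. Scores of 10 to 30 made up 27.8% of the isolated peaks (23.7 to 32.3) and 22.4% of the others (21.3 to 23.7). Scores of 30 to 50 made up 17.0% of the isolated peaks (13.6 to 20.8) and 10.7% of the others (9.82 to 11.6). A score of at least 100 was reached by 113 isolated peaks, or 25.6% (21.6 to 29.9), against 35.3% of all 5097 peaks and 36.2% of the others. At the 5th percentile the score of isolated peaks was 1.03 times that of the others, at the 25th 0.839 times, at the median 0.716 times and at the 95th 0.868 times. As a ratio, the groups were furthest apart at the median among these percentiles.

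**Figure D1:**
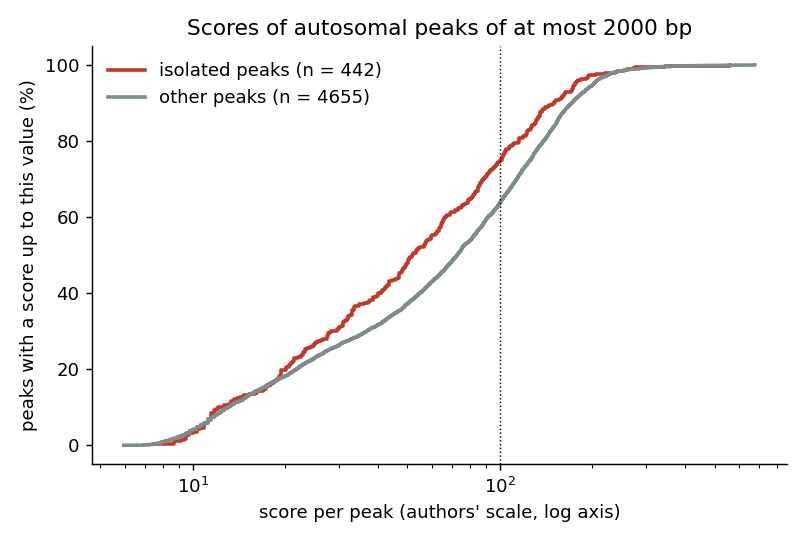
Cumulative share of autosomal peaks of at most 2000 bp (vertical axis, %) by score on the authors' scale (horizontal log axis), for 442 isolated peaks in red and 4655 other peaks in grey; the dotted line marks a score of 100. The curves meet at the lowest scores and the red one lies to the left at the medians of 51.9 and 72.4.

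Read the other way, the share of peaks that were isolated was higher at scores of 10 to 50 than at 100 or more. Among the 200 peaks with a score under 10, 14 were isolated (95% interval of the share 3.88 to 11.5%). The share was 10.5% among the 1168 peaks with a score of 10 to 30 (8.83 to 12.4) and 13.1% among the 573 peaks with a score of 30 to 50 (10.4 to 16.1), with overlapping intervals. It was 8.63% among the 1356 peaks with a score of 50 to 100. It was 6.55% among the 1542 peaks with a score of 100 to 200 (5.37 to 7.90) and 4.65% among the 258 peaks with a score of 200 or more (2.43 to 7.98). By width the share declined in order. It was 10.8% at 200 to 500 bp, 9.33% at 501 to 1000 bp, 7.93% at 1001 to 1500 bp and 5.72% at 1501 to 2000 bp. Intervals of adjacent width classes overlapped, but those of the narrowest (9.03 to 12.8) and the widest (4.10 to 7.73) did not.

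Wider peaks carried higher scores in both groups, so scores were also set side by side within classes of width. Across isolated peaks the Spearman correlation of width and score was 0.765 (n = 442), and across the others it was 0.800 (n = 4655). In the class of 200 to 500 bp, isolated peaks had a median score of 17.0 (13.6 to 19.4, n = 117) and the others one of 13.9 (13.3 to 14.6, n = 964), with overlapping intervals. Within that class isolated peaks were also wider by their medians, 344 bp (326 to 368) against 317 bp (307 to 327), with slightly overlapping intervals. At 501 to 1000 bp the medians were 50.4 (43.4 to 54.3, n = 144) and 53.2 (50.5 to 55.4, n = 1399), with overlapping intervals. At 1001 to 1500 bp isolated peaks were lower, with 100.1 (89.4 to 107) against 112 (109 to 114). At 1501 to 2000 bp they were lower as well, with 127 (87.2 to 139.9, n = 39) against 148 (144 to 153, n = 643).

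The ratio was 1.22 in the narrowest class, with an interval of 0.977 to 1.39 that holds 1, and 0.857 in the widest (0.589 to 0.946). Intervals of ratios are those of the isolated peaks' median divided by the other peaks' median. They take the latter as fixed and leave out its error. When the rule was limited to peaks of at most 1000 bp, the ratio of the median scores was 1.04, on the other side of 1. When the other peaks were weighted to the widths of the isolated ones in steps of 100 bp, their median was 61.4 and the ratio 0.844. Peaks of at most 500 bp made up 26.5% of the isolated peaks (22.4 to 30.8), against 21.2% of all 5097 peaks and 20.7% of the others.

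**Figure D2:**
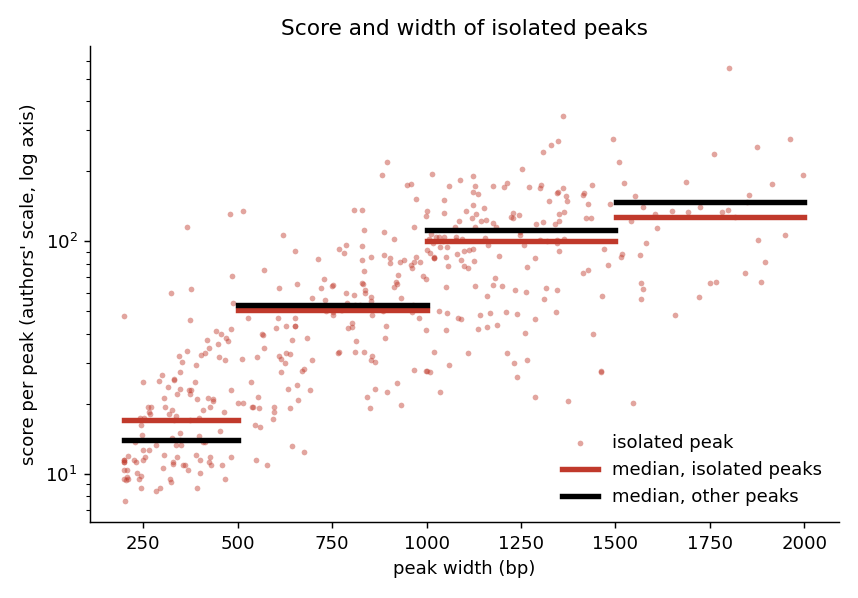
Score on the authors' scale (vertical log axis) by width in bp (horizontal axis) for each of the 442 isolated peaks (red points), with class medians of isolated peaks (red bars) and of the 4655 other peaks (black bars). The red bar lies above the black one at 200 to 500 bp (17.0 and 13.9, with overlapping intervals) and below it in the classes over 1000 bp.

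Some isolated peaks were wide for their score. Of the 181 isolated peaks over 1000 bp, 31 had a score under 50, or 17.1% (11.9 to 23.4). Of the 2292 other peaks of that width 161 did, or 7.02% (6.01 to 8.15). The reverse form, a peak of at most 500 bp with a score of at least 50, was found in 6 of 117 isolated peaks (5.13%, 1.90 to 10.8) and 43 of 964 others (4.46%, 3.25 to 5.96), with overlapping intervals.

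Median scores were similar in the distance classes up to the threshold of the rule and lower in those beyond it. Among peaks of at most 2000 bp whose nearer neighbour was under 500 bp away, the median score was 74.8 (71.03 to 78.4). It was 69.1 at 500 to 2000 bp (63.7 to 73.6), 72.7 at 2000 to 5000 bp (66.0 to 82.1) and 71.8 at 5000 to 10000 bp (62.6 to 80.9). Isolated peaks with a shorter gap of 10000 to 20000 bp had a median of 58.9 (48.5 to 71.2, n = 220), and this interval overlapped those of all 4 nearer classes. Those at 20000 to 50000 bp had 50.02 (39.95 to 59.8, n = 163), and those with at least 50000 bp had 46.9 (32.5 to 63.1, n = 59). Within the isolated peaks the intervals of these 3 classes overlapped, and the Spearman correlation of shorter gap and score was -0.0906 (n = 442).

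Widths followed, with medians of 982, 837 and 753 bp and overlapping intervals in the same 3 classes of isolated peaks. Weighted to those widths, the ratio to the other peaks was 0.848 at 10000 to 20000 bp, 0.886 at 20000 to 50000 bp and 1.02 at 50000 bp or more. The weighted medians of the other peaks were 69.5, 56.4 and 45.9 in the same order. Each lay within the interval of the isolated peaks' median in its class.

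**Figure D3:**
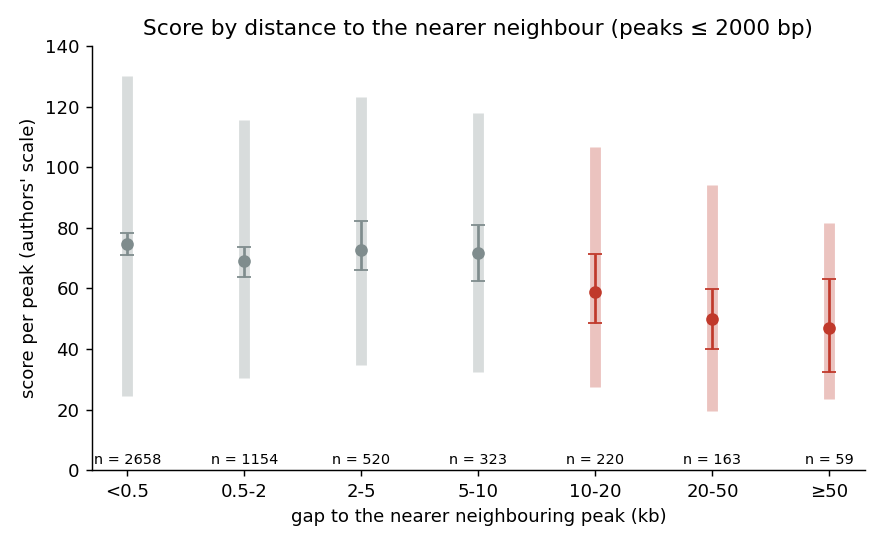
Median score on the authors' scale (points, vertical axis) of autosomal peaks of at most 2000 bp by the gap to the nearer neighbour in kb (horizontal axis), with 95% binomial intervals of the median (error bars) and quartiles (pale bars); isolated peaks are red. Medians lie between 69.1 and 74.8 in the 4 grey classes and at 58.9, 50.02 and 46.9 in the red ones.

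Peaks with a long gap on 1 side had a median score between the other two kinds. Peaks of at most 2000 bp with no gap of at least 10000 bp had a median score of 74.8 (71.8 to 77.2, n = 2669). Those with 1 such gap had 69.5 (66.01 to 73.4, n = 1986), and the isolated peaks, with 2, had 51.9. The intervals of the peaks with no long gap and with 1 overlapped. The median widths were 1017, 947 and 886 bp in the same order. Within classes of width this order did not hold throughout. At 200 to 500 bp the median scores were 13.3, 14.9 and 17.0, a rise with overlapping intervals. At 501 to 1000 bp they were 54.8, 51.6 and 50.4. At 1001 to 1500 bp they were 110.2, 114 and 100.1, and at 1501 to 2000 bp 148, 148 and 127. Weighted to the widths of isolated peaks, the ratio of isolated peaks to those with no long gap was 0.852, and to those with 1 long gap 0.829.

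At the edge of the rule the values were mixed. The isolated peaks closest to the threshold had shorter gaps of 10030, 10059 and 10071 bp and scores of 20.2, 20.9 and 23.6. The 3 peaks just short of it, with 1 gap over 10000 bp and shorter gaps of 9972, 9970 and 9952 bp, had scores of 11.5, 169 and 19.3. The widest isolated peaks had widths of 1997, 1963 and 1949 bp and scores of 193, 276 and 107. The narrowest isolated peaks over the limit had 2042, 2051 and 2077 bp and scores of 93.3, 211 and 67.3.

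All 4 arms had isolated peaks, and in each their median score was lower than that of the other peaks. The arm 3R held 134, or 9.31% of its inner peaks of at most 2000 bp, and 3L held 120, or 9.89% (8.27 to 11.7). The arm 2R held 102, or 8.08%, and 2L held 86, or 7.28% (5.87 to 8.92). Median scores of isolated and other peaks were 58.1 and 88.4 on 3R, 56.5 and 76.4 on 2R, 49.8 and 65.4 on 3L, and 46.9 and 62.6 on 2L. The ratios were 0.657, 0.739, 0.761 and 0.750, and after weighting for width 0.796, 0.816, 0.908 and 0.856. The weighted medians of the other peaks on 3R (73.01) and 3L (54.8) lay within the isolated peaks' intervals (43.7 to 81.2 and 40.2 to 74.8). On 2R (69.2) and 2L (54.8) they lay above those intervals (46.4 to 66.0 and 33.0 to 53.2). Without weighting, the intervals of the medians overlapped on 3L (40.2 to 74.8 and 60.9 to 70.6). The arms stood in the same order in both groups, but the intervals of the 4 arms overlapped among isolated peaks.

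**Figure D4:**
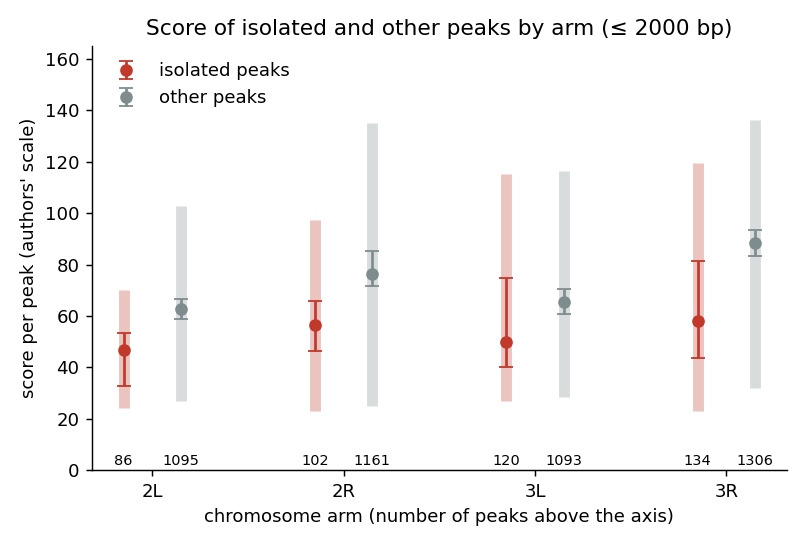
Median score on the authors' scale (points, vertical axis) of isolated peaks (red) and other peaks (grey) of at most 2000 bp on each autosomal arm (horizontal axis), with 95% binomial intervals of the median (error bars), quartiles (pale bars) and the number of peaks. The red point lies below the grey one on every arm, from 46.9 against 62.6 on 2L to 58.1 against 88.4 on 3R.

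Isolated peaks were spread over most of each arm. Of 91 full 1 Mb bins, 88 held at least 1, with a median of 4 per bin. Bins with under 40 peaks held 4.27 isolated peaks on average and those with 80 or more held 4.47, although they differed in the number of all peaks. Bins with 40 to 59 peaks held 5.23 and those with 60 to 79 held 4.14. Isolated peaks were 15.0% of the peaks of at most 2000 bp in the sparse bins, with under 40 peaks. In the dense ones, with 80 or more, they were 6.05%. Gaps and numbers of peaks come from the same positions. With similar numbers of isolated peaks per bin, this share falls as the number of all peaks rises. Median scores of isolated and other peaks were 43.1 and 57.5 in the sparse bins and 49.4 and 81.2 in the dense ones.

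The comparison was also made within bins, since score levels vary along the arms. For the 438 isolated peaks in bins with at least 10 other peaks, the median ratio of their score to the bin's median of other peaks was 0.786, with quartiles of 0.353 and 1.27. Of these peaks 271 lay below that bin median, or 61.9% (57.1 to 66.4).

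The fullest bin held 12 isolated peaks among 36 peaks, at 23 to 24 Mb of 3L, close to the centromere of that arm. There the isolated peaks had a median score of 23.4 and the others one of 18.9, so the order was the other way round. This order was not particular to that bin. It was also found in bins far from the centromeres, and each bin held few isolated peaks. In the 2 Mb nearest the centromere of the 4 arms together, 44 of 465 peaks were isolated, or 9.46% (6.96 to 12.5), with median scores of 38.9 (29.4 to 78.4) and 52.1 (39.8 to 71.1) in isolated and other peaks. In the 2 Mb at the telomere side 32 of 420 were isolated, or 7.62% (5.27 to 10.6), with medians of 55.0 (32.0 to 114.6) and 71.8 (66.0 to 75.4). The intervals overlapped at both ends of the arms, but not between them (48.1 to 60.3 and 70.6 to 76.6). The ratio was 0.746 at the centromere side, 0.765 at the telomere side and 0.712 between them.

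The gaps of each isolated peak were ordered as shorter and longer, so a difference between their medians follows from this ordering. The rule selects on these gaps, and their medians were not compared with those of other peaks, so the medians are descriptions. The shorter gap had a median of 20104 bp and the longer one of 51258 bp, and both gaps together had a median of 76968 bp. Of the 442 peaks, 59 had at least 50000 bp on both sides and 9 had at least 100000 bp. Gaps of at least 10000 bp were 27.9% of all autosomal gaps and 83.2% of the bases between the first and the last peak of the arms. After a long gap on the left, 31.1% of autosomal peaks of any width also had one on the right (28.8 to 33.3), against 26.7% after a short gap (25.4 to 28.1).

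Some isolated peaks followed each other. Of the 442, 223 had another isolated peak as a neighbour (50.5%, 45.7 to 55.2), and 41 had one on both sides (9.28%). A neighbour of an isolated peak has 1 long gap by the rule. Of all inner autosomal peaks with a long gap on the left, 31.1% had one on the right as well. That share is for 1 side and for peaks of any width. The 50.5% is for either of 2 sides and for neighbours of at most 2000 bp, so these shares are not directly comparable. Whether isolated peaks followed each other more often than the 31.1% implies was not tested. Those 223 had a median score of 48.1 (38.5 to 54.3), and the 219 others had one of 62.0 (49.0 to 73.01), with overlapping intervals. The longest rows held 5 isolated peaks, at 2L:16451333–16658001 with scores from 15.2 to 53.2, and at 3L:23105223–23252984 with scores from 11.0 to 137.

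Isolated peaks were also low next to what lay across their gaps. A score below both neighbours was found in 41.2% of isolated peaks (36.5 to 45.9) and in 34.9% of the others (33.5 to 36.3). A score above both was found in 26.0% and 27.0%. Neighbours may be of any width, so wide neighbours enter both shares. The neighbours of isolated peaks had a median score of 68.6, and those of the other peaks had one of 82.1. Of the 442 isolated peaks, 223 had another one beside them, so their own lower scores enter the 68.6.

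A stretch of peaks bounded by gaps of at least 10000 bp was taken as an island, and the autosomal arms held 1658. Islands of 1 peak were 31.1% of the islands and held 8.68% of the peaks. The 515 of them comprised the 442 isolated peaks, 71 single peaks over 2000 bp and 2 peaks at an end of an arm. Peaks of at most 2000 bp had a median score of 51.6 in islands of 1 peak, 68.9 in islands of 2 and 65.4 in islands of 3. It was 69.5 in islands of 4 to 6, 76.6 in islands of 7 to 12 and 75.4 in islands of 13 or more. The largest step in this series was that from islands of 1 peak to islands of 2.

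The strongest isolated peak lay at 2R:20231199–20232997, with a score of 559.7 and a width of 1799 bp, 144906 bp from its left and 55243 bp from its right neighbour. It was the sole isolated peak with a score over 400. The next were 3R:20595070–20596430 with 345, 3L:3237592–3239554 with 276 and 2R:11736032–11737524 with 275. The strongest on 2L was 2L:21573360–21575234 with 254. Of the 10 highest, 4 lay on 3R, at 20595070, 21808662, 22737276 and 25659504.

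The weakest isolated peak was 3R:11008020–11008222, with a score of 7.65 and a width of 203 bp. A score of 8.41 was found at 3R:21565157–21565440. A score of 8.67 was found at 3L:15064408–15064799, at 2L:21983255–21983548 and at 3L:23974198–23974442, and each of these 5 weakest peaks was under 400 bp wide.

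The most remote isolated peak lay at 2R:4308584–4309335, 181839 and 173441 bp from its neighbours, with a score of 64.8 and a width of 752 bp. It was followed by 3L:10217263–10218385 with a score of 144, 2L:17963468–17964125 with 24.03, 3L:6328105–6328619 with 135 and 3L:7117764–7118516 with 49.5. These 5 peaks spanned scores on both sides of the median of the other peaks. The peak at 3L:6328105 had that score at a width of 515 bp, above the 90th percentile of 101 for isolated peaks of 501 to 1000 bp.

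The width limit of the rule left out 71 inner autosomal peaks over 2000 bp with both gaps of at least 10000 bp. They were 8.59% of the 827 inner peaks of that width (6.77 to 10.7), near the 8.67% of narrower peaks and the 8.66% of all inner autosomal peaks. Here the order of the scores was reversed. The 71 single wide peaks had a median score of 374 (220 to 538) and a median width of 5144 bp, and the 756 others had 175 (171 to 179.7) and 2831 bp. The highest score of the whole list, 846, belonged to one of the 71, at 3L:16638322–16641011, with gaps of 23379 and 10928 bp.

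Many of the single wide peaks shared 1 of 2 widths. A width of 5100 to 5300 bp was found in 19 of the 71, with scores from 557 to 665, and a width of 7400 to 7600 bp in 13, with scores from 414 to 594. The 39 remaining single wide peaks had a median score of 180.1 (131 to 219.6), and the 727 wide peaks outside these widths with a near neighbour had 175 (169.5 to 179). Among wide peaks with a near neighbour, 23 of 756 had a width of 5100 to 5300 bp, with a median score of 181, and 6 of 756 a width of 7400 to 7600 bp, with a median of 548. These windows were set after the widths had been seen. Without the peaks of these widths the medians of single and other wide peaks, 180.1 and 175, were close, in place of 374 and 175. Repeats were not analysed here, and whether these peaks lie on repeated sequence was not tested.

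**Figure D5:**
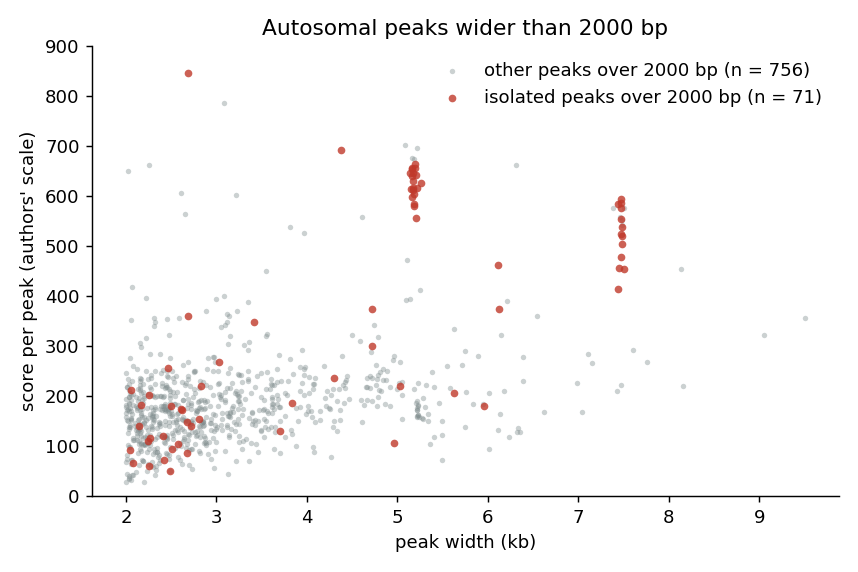
Score on the authors' scale (vertical axis) by width in kb (horizontal axis) of autosomal peaks over 2000 bp, with 71 isolated peaks in red and 756 other peaks in grey. Red points form narrow columns at 5100 to 5300 bp (19 peaks, scores 557 to 665) and at 7400 to 7600 bp (13 peaks, scores 414 to 594).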

How the data were processed

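H3K4me3 was profiled by chromatin immunoprecipitation and sequencing in S2-DRSC cells, with 2 precipitated and 2 input libraries grouped by title. The labels do not say whether replicates were separate cultures. The deposited list gives 1 score per peak, of a kind the file does not state, from 5.96 to 846.25. Per the file headers, MACS made the list on FlyBase release 5. MACS2, BWA, CASAVA (1.7.0.3 and 1.7.0.2) and BDGP5 are named by the submitters' processing notes. Threshold, input and pooling are not given in sources used here. No peak is narrower than 200 bp.

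Starts were read as counted from 0 and are printed counted from 1. A gap ran from the end of one peak to the start of the next. Medians, shares with exact binomial intervals and ratios were computed for isolated and other peaks, with no test, as no value of a single library was given. Depth is unknown. The comparison weighted for width used 100 bp classes. Regions named are the strongest, weakest, widest and most remote peaks, the strongest of each arm and those at the limits of the rule; the text prints those that lead. The selection rule, comparisons and alternatives were chosen with earlier results of these data known. Weighting, windows of width and islands were added after seeing the data. The scripts were tested on simulated data. Genes and sequence were not analysed, since the gene table used is of release 6. Software was matplotlib 3.10.9, scipy 1.17.1, pandas 2.3.3, numpy 2.4.6 and Python 3.11.15.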

Additional observations from a re-analysis of the deposited data

How the results depend on the processing

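Alternatives were other minimum gaps and width limits, the upper 50% of the list, scores of at least 10, merging of peaks closer than 500 bp, leaving out each arm, the arm ends or the 3 bins richest in isolated peaks, and other comparison peaks; the last 2 kinds were chosen after seeing the data. Of 179 values, 148 stayed within the interval of the reported one and, for ratios, on the same side of 1. For the number of peaks the limit was 1.5 times the reported one. Some of the 148 could not move, since a changed width limit leaves the ratios of the width classes it keeps as they were. The ratio of median scores was below 1 in 15 of 16 settings. The cause of each shift was not tested, but the upper 50% selects on score, and other limits change which peaks are chosen. The minimum gap of 5000 bp gave 765 isolated peaks (15.0%) and a ratio of 0.950 at 1501 to 2000 bp. At 20000 bp there were 222 (4.36%), with a median width of 809 bp and a width ratio of 0.818. At 50000 bp there were 59 (1.16%), with a width of 753 bp, a width ratio of 0.765, 18.6% at a score of 100 and a ratio weighted for width of 1.04, the other way. The 1000 bp limit gave 261 peaks (9.95%), a median score of 30.7, a width of 566 bp, 6.51% at a score of 100, and ratios of 1.04 unweighted and 1.11 weighted, both the other way. Without a width limit the score was 64.2, the width 999 bp and the share at 100 34.5%. The upper 50% gave a share of 13.3%, a score of 95.2, a width of 1125.5 bp, 47.4% at a score of 100, and a ratio of 0.790 at 200 to 500 bp, the other way. Merging gave a share of 18.2%, a width of 959 bp and a ratio of 1.01 at 501 to 1000 bp. That ratio was the other way but within the reported interval of 0.815 to 1.02. No paired analysis was possible because values of single libraries were not analysed here; for that reason no replicate could be left out. A gap holds no peak past the authors' threshold, which does not show that the mark is absent there.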

Other observations

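The same rule on the X chromosome kept 103 of 1074 inner peaks of at most 2000 bp, or 9.59% (7.90 to 11.5), near the 8.67% of the autosomal arms. Isolated X peaks had a median score of 24.03 (19.4 to 30.3), and the other X peaks had one of 28.2 (27.3 to 29.7), so the intervals overlapped. The ratio was 0.854, and 0.937 after weighting for width. A score of at least 100 was reached by 12.6% of the isolated X peaks and 12.6% of the others. The median width was 533 bp (503 to 651) in isolated X peaks and 674 bp (649 to 705) in the others, and these intervals overlapped slightly. Whether X and autosomes differed in these ratios was not tested.

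On the small chromosome 4 the rule kept 14 of 57 peaks, or 24.6% (14.1 to 37.8). Their median score was 16.4 (10.9 to 29.9), and that of the other 43 peaks was 30.3 (20.9 to 43.4), so these intervals overlapped too. Median widths were 516 and 529 bp.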
